A study of Homo sapiens with 6 samples.

Results

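The genes described here are 10 parts of the machinery that cuts extracellular matrix: the matrix metalloproteases Mmp2, Mmp3, Mmp9, Mmp10, Mmp13 and Mmp14, the urokinase gene Plau, and the inhibitor genes Timp1, Timp2 and Timp3. They were chosen by gene ID, and all 10 were present among the 54532 IDs of every library. The names are Ensembl's mouse names for these IDs, given with the list of IDs. RNA was measured by sequencing in 6 libraries in 3 groups of 2, labelled sh4, sh1 and NC. The labels describe all of them as A549, a human cell line grown from a lung adenocarcinoma, and the series title names a knockdown of DSTY. Reading sh4 and sh1 as knockdown groups and NC as their control rests on that title and the design text, since the labels do not spell out these names, the construct, its delivery or a time. No treatment is labelled for any group, and the labels do not say whether replicates were separate cultures. The p-values rest on the spread between these libraries, pooled in part over many genes, and that spread may be technical.

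All 54532 IDs carry Ensembl's mouse prefix and 0 carry the human prefix, although the labels state human cells. The organism of the RNA is therefore unresolved, and the gene names below stand for the mouse IDs. Whether the gene aimed at was lowered in sh4 and sh1 was not analysed here, and the A549 label was not checked against cell type markers. Recovered reads per library ranged from 14999786 to 18011798. Replicates differed by a root-mean-square of at most 0.245 in log2(FPKM + 1), and libraries of different groups by at least 0.56.

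Matrix metalloproteases are zinc enzymes made as inactive precursors, and most are secreted into the space around the cell. Several are activated by other proteases, among them plasmin, which urokinase releases from plasminogen, and members of their own family. TIMP proteins bind the active site of metalloproteases and block it. In tumours and in tissue repair the balance of these enzymes and inhibitors sets how fast collagen, laminin and other matrix proteins are broken down, and RNA levels do not report activation.

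Levels are given as deposited, in FPKM, a fragment count divided by gene length and sequencing depth. Here the authors' values also carry a scaling between libraries that holds the typical gene constant. Being per length, they allow a rough comparison between genes. It rests on the gene lengths used by the authors, whose annotation was not given, and so do the orders, sums and ratios below. The inhibitors Timp1 and Timp2 were the most abundant of the 10 in each group. In sh4 the order of mean levels was Timp2, Timp1, Mmp14, Mmp3, Mmp13, Timp3, Plau, Mmp2, Mmp10 and Mmp9. In sh1 it was Timp2, Timp1, Mmp3, Mmp13, Mmp14, Timp3, Mmp10, Mmp2, Mmp9 and Plau. In NC it was Timp1, Timp2, Timp3, Mmp13, Mmp14, Plau, Mmp2, Mmp9, Mmp3 and Mmp10. The libraries of neighbours in these orders overlapped for Mmp2 and Mmp10 in sh4, Timp3 and Mmp10 in sh1, and Mmp3 and Mmp10 in NC. Mmp3 stood at position 4 in sh4 and 3 in sh1, against 9 in NC. Its mean level exceeded that of 86.6% of IDs above 0 in sh4 and 96.4% in sh1, against 64.7% in NC.

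**Figure D1:**
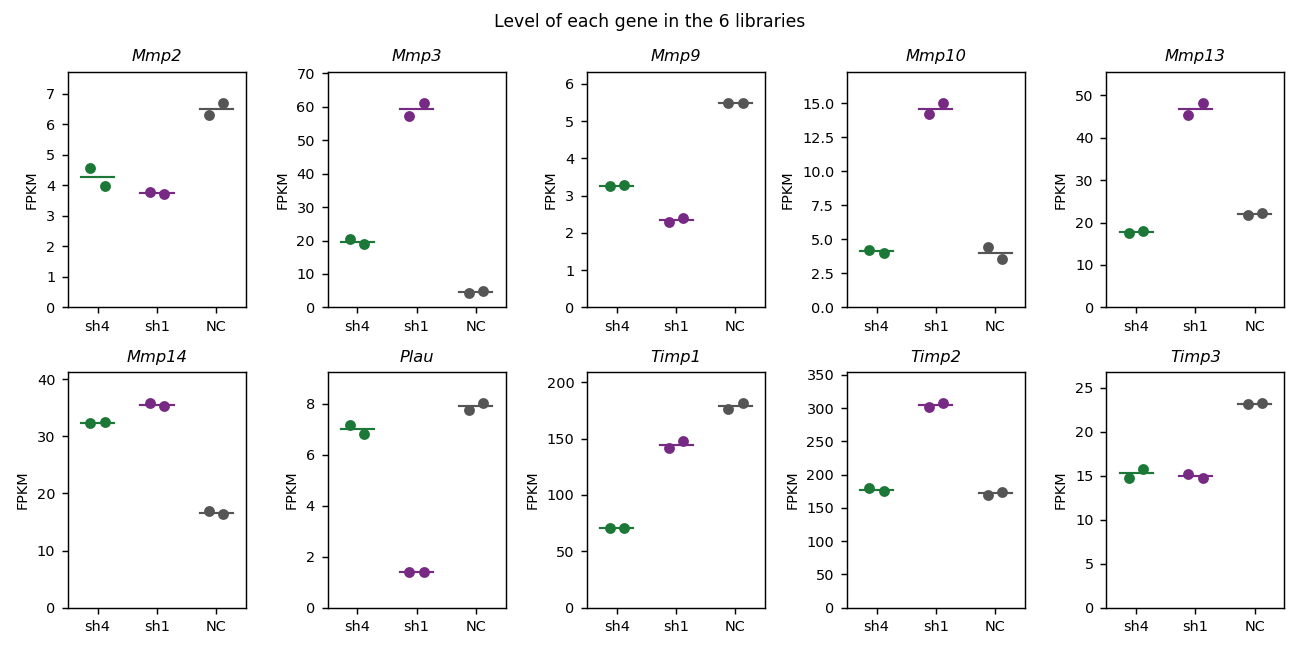
Level in FPKM (vertical axes, starting at 0) of each of the 10 genes in sh4, sh1 and NC, with a point per library and a line at the mean of the 2 libraries. Mmp3 is at 18.8 to 20.5 FPKM in sh4, 57.2 to 61.2 in sh1 and 4.29 to 4.78 in NC, while Plau is at 1.39 FPKM in both sh1 libraries and at 6.81 FPKM or more in the others.

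Stromelysins cleave proteoglycans, laminin and fibronectin and can activate other metalloproteases. Mmp3 (ENSMUSG00000043613), stromelysin 1, measured 20.5 and 18.8 FPKM in sh4, 57.2 and 61.2 FPKM in sh1, and 4.29 and 4.78 FPKM in NC. The 3 groups did not overlap, with sh1 highest and NC lowest. Mmp3 rose in sh1 by a log2 fold change of 3.44 (SE 0.071, limma, adjusted p = 2.63e-13), a 13.1-fold ratio of mean FPKM. In sh4 it rose by 1.90 (SE 0.071, limma, adjusted p = 1.07e-10), a ratio of 4.34. Here as for every gene in these bulk libraries, more expressing cells and more RNA per cell cannot be told apart. Recovered reads of Mmp3 were 683 and 622 in sh4, 1721 and 1943 in sh1, and 122 and 132 in NC.

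Mmp10 (ENSMUSG00000047562), stromelysin 2, is a close relative of Mmp3. It measured 4.24 and 4.02 FPKM in sh4, 14.2 and 15.03 FPKM in sh1, and 4.41 and 3.56 FPKM in NC. Here sh1 alone stood apart, and the sh4 libraries lay between the NC libraries. The log2 fold change was 1.65 in sh1 (SE 0.10, limma, adjusted p = 8.90e-09), a ratio of 3.66. In sh4 it was 0.05 with a 95% confidence interval of -0.17 to 0.26 (limma, adjusted p = 0.699), and its sign turned without NC replicate 2 (-0.08). The NC libraries held 120 and 94 reads of Mmp10, with exact Poisson 95% intervals of 99.5 to 143 and 76 to 115 reads that cover counting error only.

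Mmp13 (ENSMUSG00000050578) encodes collagenase 3, which cuts fibrillar collagen. Its gene lies in the same cluster of metalloprotease genes as those of Mmp3 and Mmp10 in mouse and human. Its level was 17.5 and 18.0 FPKM in sh4, 45.5 and 48.3 FPKM in sh1, and 21.9 and 22.4 FPKM in NC. The groups did not overlap, and NC lay between sh4 and sh1. Mmp13 rose in sh1 by 1.05 log2 units (SE 0.056, limma, adjusted p = 2.39e-09) and fell by 0.30 in sh4 (SE 0.056, limma, adjusted p = 0.000313). Mmp3, Mmp10 and Mmp13 thus had their highest mean level in sh1, as had Mmp14 and Timp2 of the other genes. The order of sh4 and NC differed between Mmp3, Mmp10 and Mmp13: Mmp3 was higher in sh4, Mmp13 lower in sh4, and Mmp10 overlapped.

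Mmp14 (ENSMUSG00000000957) encodes a membrane-anchored metalloprotease that cuts collagen at the cell surface and activates the Mmp2 precursor with the help of TIMP2. Levels were 32.3 and 32.5 FPKM in sh4, 35.8 and 35.3 FPKM in sh1, and 17.0 and 16.4 FPKM in NC. The 4 libraries of sh4 and sh1 lay close together and far above NC. Mmp14 rose in sh4 by 0.92 log2 units (SE 0.045, limma, adjusted p = 1.29e-09) and in sh1 by 1.05 (SE 0.045, limma, adjusted p = 3.01e-10).

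The gelatinases, which digest denatured collagen and basement membrane collagen, were lower in both sh4 and sh1 than in NC. Mmp2 (ENSMUSG00000031740) measured 4.56 and 3.99 FPKM in sh4, 3.78 and 3.72 FPKM in sh1, and 6.31 and 6.71 FPKM in NC. Mmp9 (ENSMUSG00000017737) measured 3.26 and 3.28 FPKM in sh4, 2.30 and 2.39 FPKM in sh1, and 5.48 and 5.49 FPKM in NC. For both genes every NC library was above every library of sh4 and sh1. Mmp2 fell by 0.51 log2 units in sh4 (SE 0.088, limma, adjusted p = 0.000178) and by 0.66 in sh1 (SE 0.088, limma, adjusted p = 1.86e-05). Mmp9 fell by 0.60 in sh4 (SE 0.086, limma, adjusted p = 3.41e-05) and by 0.95 in sh1 (SE 0.086, limma, adjusted p = 4.32e-07). At these levels the added 1 FPKM shrinks the fold changes. As ratios of mean FPKM, sh4 and sh1 held 0.657 and 0.576 of the NC level of Mmp2, and 0.596 and 0.428 of that of Mmp9.

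Plau (ENSMUSG00000021822) encodes urokinase, the secreted serine protease that turns plasminogen into plasmin. Its level was 7.16 and 6.81 FPKM in sh4, 1.39 and 1.39 FPKM in sh1, and 7.76 and 8.02 FPKM in NC. The sh1 libraries lay far below all others, while sh4 lay just under NC without overlap. Plau fell by 1.89 log2 units in sh1 (SE 0.087, limma, adjusted p = 6.11e-10), and its mean in NC was 5.67 times that in sh1. In sh4 the log2 fold change was -0.15 with a 95% confidence interval of -0.34 to 0.03 (limma, adjusted p = 0.132). The sh1 values rest on 55 and 58 reads, with exact Poisson 95% intervals of 41.4 to 71.6 and 44 to 75 reads, which are wider than the gap between the sh1 replicates.

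The inhibitors changed in different ways. Timp1 (ENSMUSG00000001131), a secreted inhibitor often induced by growth factors and cytokines, measured 70.6 and 71.1 FPKM in sh4, 141.2 and 148 FPKM in sh1, and 176 and 181 FPKM in NC. It was lowest in sh4, and no libraries of different groups overlapped. Timp1 fell by 1.32 log2 units in sh4 (SE 0.050, limma, adjusted p = 1.19e-10) and by 0.31 in sh1 (SE 0.050, limma, adjusted p = 0.000118). The NC mean was 2.52 times the sh4 mean.

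Timp2 (ENSMUSG00000017466) is the inhibitor that also takes part in Mmp2 activation at the cell surface. Its level was 179.9 and 175 FPKM in sh4, 302 and 308 FPKM in sh1, and 170.2 and 174 FPKM in NC. It was high in sh1, and the sh4 libraries lay just above NC. Timp2 rose in sh1 by 0.82 log2 units (SE 0.039, limma, adjusted p = 7.91e-10), a ratio of 1.77. In sh4 its log2 fold change was 0.04 with a 95% confidence interval of -0.04 to 0.13 (limma, adjusted p = 0.353). With between 10413 and 21108 reads per library, Timp2 was the most deeply sampled of the 10 genes.

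Timp3 (ENSMUSG00000020044) is bound to the matrix and also inhibits some ADAM-family proteases. It measured 14.8 and 15.7 FPKM in sh4, 15.3 and 14.7 FPKM in sh1, and 23.2 and 23.3 FPKM in NC. The sh4 and sh1 libraries overlapped each other and lay below NC. Timp3 fell by 0.57 log2 units in sh4 (SE 0.049, limma, adjusted p = 2.78e-07) and by 0.60 in sh1 (SE 0.049, limma, adjusted p = 1.78e-07).

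**Figure D2:**
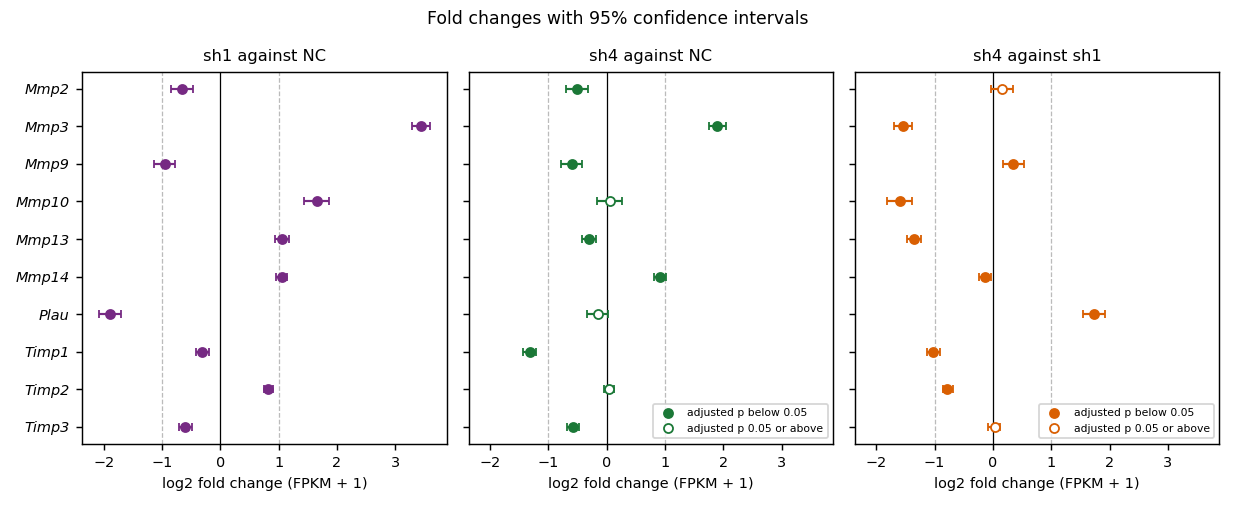
Log2 fold change of each gene on the log2(FPKM + 1) scale (horizontal axes) in the comparisons sh1 against NC, sh4 against NC and sh4 against sh1, with 95% confidence intervals from limma. Filled points passed an adjusted p of 0.05, open points did not, and dashed lines mark 1 log2 unit; Mmp3 at 3.44 and Plau at -1.89 are the extremes in sh1.

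In sh1 against NC, which asked what differs between the sh1 group and its control, Mmp3, Mmp10, Mmp13, Mmp14 and Timp2 were higher and Mmp2, Mmp9, Plau, Timp1 and Timp3 lower. All 10 genes passed the filter on low values and the test, 5 in each direction. The background is high: 65.5% of the 12755 IDs tested passed in this comparison (32.4% higher, 33.2% lower). With at least 1 log2 unit also required, Mmp3, Mmp10, Mmp13 and Mmp14 were higher and Plau lower, 5 of 10, against 9.96% of all IDs tested (5.67% higher, 4.29% lower). The split of 4 higher and 1 lower became 2 and 2 under total-read scaling or with libraries brought to equal FPKM sums. Mmp13 and Mmp14 then came to 0.97 to 0.99 and Mmp9 to -1.0001 or -1.01. With a pseudocount of 0.1 FPKM and by voom on recovered reads the split became 4 and 2, since Mmp9 came to -1.19 and -1.22. In these settings 2051 and 2159 of the 12755 IDs passed the same rule, against 1270. The median absolute log2 fold change was 1.00 over the 10 genes and 0.36 over all IDs tested. Because the 10 genes were chosen with earlier results of these data known, setting them against all IDs, here and below, is a description only. Among all IDs tested, Mmp3 ranked 21 from the top by fold change and Plau ranked 81 from the bottom.

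In sh4 against NC the same question was asked of the sh4 group. Mmp3 and Mmp14 were higher and Mmp2, Mmp9, Mmp13, Timp1 and Timp3 lower, while Mmp10, Plau and Timp2 did not pass. The count of 7 in 10 is near the background, since 68.2% of IDs tested passed (35% higher, 33.2% lower). With at least 1 log2 unit, Mmp3 was higher and Timp1 lower, 2 of 10, against 10.1% of IDs tested (5.9% higher, 4.2% lower). The median absolute log2 fold change was 0.54 over the 10 genes and 0.37 over all IDs tested. Both comparisons use the same 2 NC libraries, so their directions for a gene are not independent of each other. Their values for the 10 genes stand side by side above.

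Setting sh4 directly against sh1 tests whether the effects of the groups differed. In sh4, Mmp9 and Plau were higher and Mmp3, Mmp10, Mmp13, Mmp14, Timp1 and Timp2 lower than in sh1, 8 of 10, against 56% of the 12755 IDs tested (29.5% higher, 26.4% lower). With equal FPKM sums, which moved the median of all IDs by 0.107 log2 units, the split of 2 higher and 6 lower became 3 and 5. The largest differences were 1.74 for Plau (SE 0.087, limma, adjusted p = 2.35e-09), -1.60 for Mmp10 (SE 0.10, limma, adjusted p = 2.09e-08) and -1.54 for Mmp3 (SE 0.071, limma, adjusted p = 1.09e-09). Mmp13 differed by -1.35 (SE 0.056, limma, adjusted p = 3.71e-10) and Timp1 by -1.02 (SE 0.050, limma, adjusted p = 1.99e-09). With these, 5 of 10 genes differed by at least 1 log2 unit, against 6.34% of IDs tested (3.32% higher, 3.03% lower). Timp1 came to -0.94 under total-read scaling and -0.90 with equal FPKM sums, which left 4. Without sh1 replicate 2 the Timp1 difference was -0.98, also under 1 log2 unit in size.

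Smaller differences between sh4 and sh1 were found for Timp2 at -0.78 (SE 0.039, limma, adjusted p = 2.26e-09) and Mmp9 at 0.35 (SE 0.086, limma, adjusted p = 0.00341). The difference of Mmp14 was -0.13 (SE 0.045, limma, adjusted p = 0.0241). The Mmp14 call was lost under total-read scaling (-0.05, limma, adjusted p = 0.337), with equal FPKM sums (-0.01, limma, adjusted p = 0.877), and without sh1 replicate 1, sh1 replicate 2 or sh4 replicate 1 (limma, adjusted p from 0.0591 to 0.142). Mmp2 differed by 0.15 with a 95% confidence interval of -0.04 to 0.34 (limma, adjusted p = 0.168), and passed only with equal FPKM sums (0.25, limma, adjusted p = 0.0276). Timp3 differed by 0.03, with an interval of -0.08 to 0.13 (limma, adjusted p = 0.689), and its sign turned without sh1 replicate 2 (-4e-04) or sh4 replicate 2 (-0.02).

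**Figure D3:**
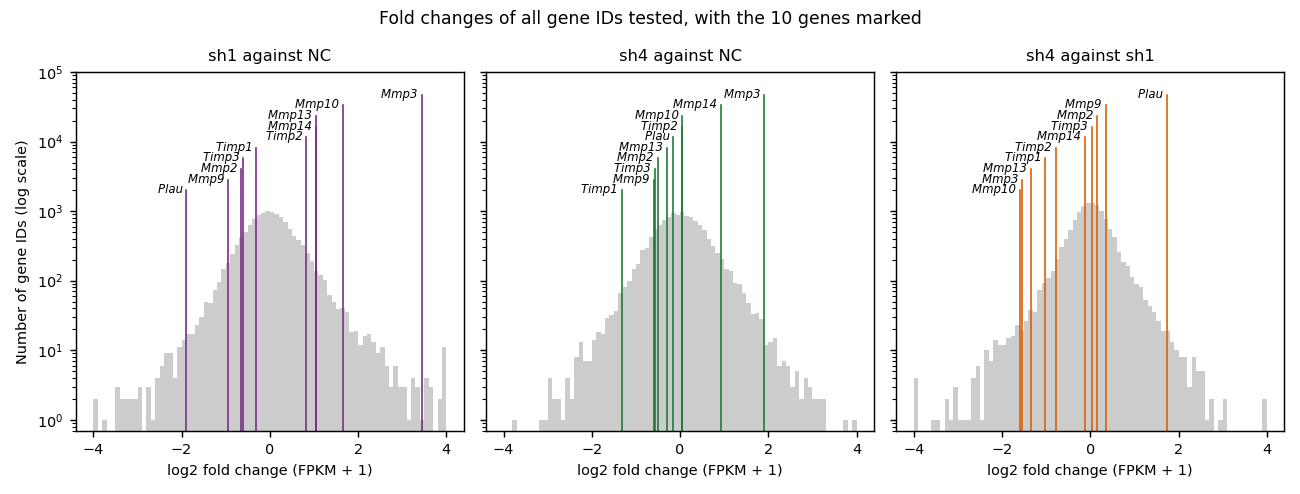
Number of gene IDs (vertical axes, log scale) by log2 fold change (horizontal axes, bins of 0.1, values beyond 4 log2 units placed in the end bins) for the 12755 IDs tested, with a line at each of the 10 genes. Most IDs lie near 0, Mmp3 lies in the right tail in both comparisons with NC, and Plau lies at -1.89 in sh1 against NC and at 1.74 in sh4 against sh1.

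Summed over the 6 metalloproteases, the level was 82.4 and 80.6 FPKM in sh4, 159 and 166 FPKM in sh1, and 59.3 and 59.3 FPKM in NC. Both sh4 and sh1 lay above NC, and sh1 lay highest. Mmp3 made up 24.9% and 23.4% of this sum in sh4 and 36.0% and 36.9% in sh1, against 7.23% and 8.06% in NC. Mmp14 made up 39.2% and 40.3% in sh4, 22.6% and 21.3% in sh1, and 28.6% and 27.6% in NC. In NC the largest part was Mmp13, with 36.9% and 37.7%. The largest part was thus a different enzyme in each group: Mmp14 in sh4, Mmp3 in sh1 and Mmp13 in NC.

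The summed level of the 3 inhibitors was 265 and 262 FPKM in sh4, 458 and 469.9 FPKM in sh1, and 369 and 379 FPKM in NC. It was below NC in sh4 and above NC in sh1. Timp2 held 67.8% and 66.8% of it in sh4 and 65.9% and 65.4% in sh1, against 46.1% and 46.0% in NC. The ratio of summed inhibitor to summed metalloprotease FPKM was 3.23 ± 0.02 in sh4, 2.86 ± 0.04 in sh1 and 6.31 ± 0.12 in NC (mean ± SD, n = 2 each). This ratio is taken within a library and does not depend on the scaling between libraries. It did not overlap between groups. The ratio covers only these 6 metalloproteases and 3 inhibitors, and other matrix protease genes gave no values. It is therefore not the whole balance of enzymes and inhibitors in these cells. These sums and ratios are given as a description with no p, since they are taken over genes chosen with earlier results of these data known. The smallest two-sided p of an exact permutation test of 2 libraries against 2 is 0.333.

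**Figure D4:**
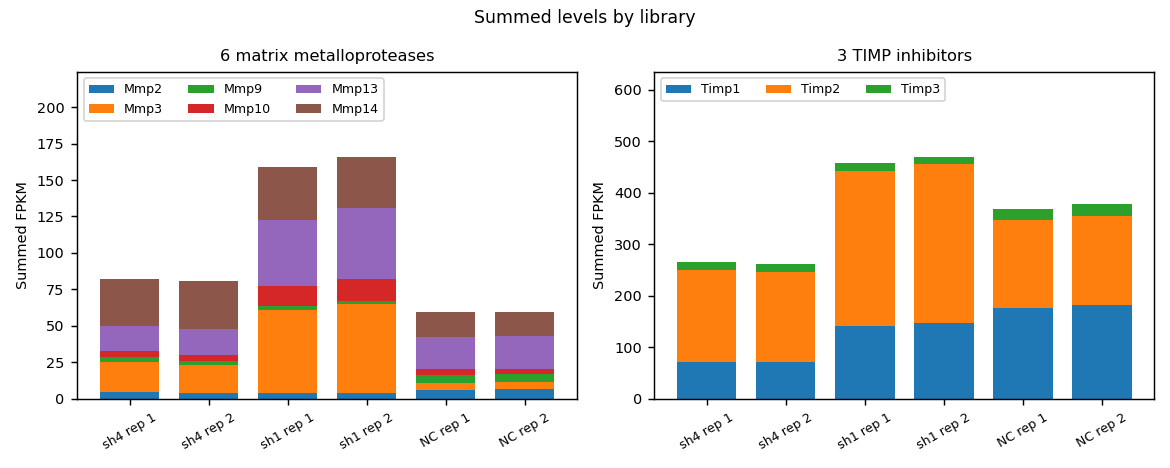
Summed FPKM (vertical axes, starting at 0) of the 6 matrix metalloproteases and of the 3 TIMP inhibitors in each library, stacked by gene, with sh4, sh1 and NC from left to right. The metalloprotease sum is 80.6 to 82.4 in sh4, 159 to 166 in sh1 and 59.3 in NC, and the inhibitor sum is 262 to 265 in sh4, 458 to 469.9 in sh1 and 369 to 379 in NC.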

How the data were processed

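RNA-seq was done on 6 libraries; per the labels' protocols RNA was extracted with Trizol. HISAT2 2.0.5 and the build hg18 are named in the submitters' processing notes. The read counter, annotation and filters were not given in the sources used here. The authors deposited a file per library with an FPKM value for each gene ID. Of the IDs, 0 were found in the human reference gene tables, so the 70 symbols of 5 planned lists (other matrix protease genes, and epithelial, fibroblast, macrophage and endothelial markers) gave no values, and no sequence or coordinate is printed. The 10 genes and the lists were chosen with earlier results of these data known, and all 10 genes are named whatever their values.

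From the low values, the worth of 1 read per library and a whole length per gene were derived; whole reads then rebuilt the FPKM of 25747 of 25747 IDs above 0 to within 1e-06 FPKM plus 1e-07 of the value. The 10 genes had lengths of 888 to 8144 bp and 55 to 21108 reads per library. The derived scaling matched median-of-ratios size factors to 8.15e-10%. Values were taken as log2(FPKM + 1) and tested with limma 3.58.1 (R 4.3.3), fitted once over the 6 libraries with 3 residual degrees of freedom, for IDs that reached 1 FPKM in at least 2 libraries, with a robust variance whose trend followed mean recovered reads. Each gene's variance was drawn toward this trend, which is shared by all IDs tested, so no SE rests on that gene's libraries alone. The fit was also run on simulated data. There only sh4 differed and far fewer IDs changed than were called here, so that run does not cover these data. P-values were adjusted by Benjamini-Hochberg over all 12755 IDs within each of 3 comparisons, with a threshold of 0.05. Fold changes on this scale understate those of low genes. Alternatives varied the pseudocount, filter, scaling, variance trend and test (voom on recovered reads), added a replicate block, or left out each library. Sums over genes, their alternatives and shares were chosen after seeing the data.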

Additional observations from a re-analysis of the deposited data

Results flagged for a closer look

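For 8 of the 10 genes the effect relative to NC was not the same in sh4 and sh1, by limma's direct test of the difference, against 56% of the 12755 IDs tested. On the log2 scale, sh4 minus sh1 came to -1.54 for Mmp3, -1.60 for Mmp10 and -1.35 for Mmp13. Mmp13 was the only gene of the 10 called in opposite directions against NC, lower in sh4 and higher in sh1. How many of all IDs tested were called in opposite directions was not counted, so this has no background to be set against. The difference was 1.74 for Plau, which fell in sh1 and did not pass in sh4. It was 0.35 for Mmp9 and -0.13 for Mmp14, with the call for Mmp14 lost in 5 of 14 alternatives. Among the inhibitors it was -1.02 for Timp1 and -0.78 for Timp2. The labels give no batch, so handling, culture and library preparation cannot be told apart from the groups.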

How the results depend on the processing

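Against NC, the 10 genes kept their side of the threshold in 138 of 138 tests in sh1 and in 138 of 138 in sh4. Another filter or variance trend, the replicate block, or leaving out a library of a group not compared left each fold change unchanged by design. Keeping direction in those settings, also between sh4 and sh1, was fixed in advance. Over all tests against NC, direction was kept except in 1, for Mmp10 in sh4. There, not past the threshold, leaving out 1 library gave -0.0775 (without NC replicate 2) to 0.1702. Between sh4 and sh1, 130 of 138 tests kept direction and side. Leaving out 1 library gave -0.0170 to 0.0674 for Timp3, with -4e-04 without sh1 replicate 2, none past the threshold; 5 tests lost the call of Mmp14 and 1 gained that of Mmp2. The cause was not tested. In fits without a library, the lone library left in its group is assumed to vary like the others. The size of an adjusted p depended on the processing even where its side of the threshold did not. For Mmp3 in sh1 against NC it went from 3.1e-17 with equal FPKM sums to 7.46e-05 with no filter on low values (limma). Group means of the summed levels kept their order under both other scalings. The filter of a mean FPKM of at least 5 left out Mmp2 and Mmp9. Counts of all IDs changed by at least 1 log2 unit moved by over 1.5 times from 1270 in sh1, 1288 in sh4 and 809 between sh4 and sh1. A pseudocount of 0.1 gave 2051, 2135 and 1285, and the numbers were 2159, 2267 and 1349 by voom, and 789, 764 and 433 with a mean FPKM of at least 5, which tests fewer IDs. With the replicate block, the 10 genes gave 10 calls in sh1, 7 in sh4 and 8 between them, as without it. Over all 12755 IDs, 8508, 8836 and 7345 passed with it, against 8360, 8696 and 7139 without it. Replicate numbers are balanced over the groups, so the block could change only the estimate of spread. Deviations of same-numbered libraries correlated at -0.014, 0.122 and -0.021, and the labels attach no batch to a number. For all IDs between sh4 and sh1, 52.8% of calls were higher as deposited, 62.2% under total-read scaling and 67.1% with equal FPKM sums. Plau in sh1, at 55 and 58 reads, is the value most limited by depth.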
